A study of Mus musculus with 33 samples.

Results

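The 10 genes described here code for enzymes that turn glucose into lactate: the hexokinases Hk1 and Hk2, glucose-6-phosphate isomerase (Gpi1), the phosphofructokinases Pfkl and Pfkp, aldolase A (Aldoa), triosephosphate isomerase (Tpi1), phosphoglycerate kinase (Pgk1), pyruvate kinase (Pkm) and lactate dehydrogenase A (Ldha). They were chosen by name and not by a measured value. All 10 of 10 were found among the 21844 genes to which the deposited transcript counts were summed. Expression was measured in 33 libraries from mouse embryonic stem cells that differentiated as embryoid bodies, which are free-floating aggregates, in medium without serum. Embryoid bodies were dispersed on day 2, treated for 2 days and harvested on day 4. The dose set held 7 libraries: 2 of the control without an added factor (SFM), of which replicate 2 carried spiked yeast transcripts, 1 with the inhibitor SB-431542 (SB), 1 with 3 ng/mL activin A (called AA3), 2 with 15 ng/mL (called AA15) and 1 with 100 ng/mL (called AA100). The method set compared AA100 with AA3 by standard RNA-seq from 20 ng of mRNA (2 AA3 libraries and 1 AA100), by DP-seq from 50 pg (1 and 2) and by SMART-seq from 50 pg (2 and 2). DP-seq amplifies cDNA with a defined set of heptamer primers, and SMART-seq amplifies whole cDNA by template switching. A further 16 libraries held AA3 mRNA only, as a dilution series, a paired-end library and 3 primer sets designed to suppress ribosomal transcripts. All replicate pairs but SFM's are technical replicates by label, and whether the SFM cultures were separate is not stated, so p-values measure the spread between these libraries, which may be technical. The stem cell line is not given in the sources used here.

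Glycolysis splits glucose into pyruvate in the cytosol. Hexokinase and phosphofructokinase spend ATP in its first phase, aldolase and triosephosphate isomerase form the triose phosphates, phosphoglycerate kinase and pyruvate kinase give ATP back, and lactate dehydrogenase reduces pyruvate to lactate. Pluripotent cells are known for a high glycolytic flux, and many of these genes are known targets of the hypoxia-inducible factors. Activin A signals through type I receptors of the TGF-beta family to SMAD2 and SMAD3 and at rising dose directs differentiating embryonic stem cells to mesoderm and endoderm. SB-431542 blocks those receptors.

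Promoters are printed for the 3 members whose AA100 and AA3 levels differed in standard RNA-seq under both fits described below (Ldha, Pgk1 and Gpi1), and both starts of Ldha are shown because its counts split between them. Each is the RefSeq window (GRCm38.p6) from 250 bases before to 50 bases after an annotated start, read 5′ to 3′ on the gene's strand. Capitals mark ACGTG on either strand (CACGT on the printed strand), the core of the hypoxia response element, and matches on both strands that overlap run together as CACGTG. The Ldha windows lie at chr7:46845554-46845853 and chr7:46846832-46847131 on the plus strand, the Pgk1 window at chrX:106186850-106187149 on the plus strand and the Gpi1 window at chr7:34230287-34230586 on the minus strand.
Ldha first start: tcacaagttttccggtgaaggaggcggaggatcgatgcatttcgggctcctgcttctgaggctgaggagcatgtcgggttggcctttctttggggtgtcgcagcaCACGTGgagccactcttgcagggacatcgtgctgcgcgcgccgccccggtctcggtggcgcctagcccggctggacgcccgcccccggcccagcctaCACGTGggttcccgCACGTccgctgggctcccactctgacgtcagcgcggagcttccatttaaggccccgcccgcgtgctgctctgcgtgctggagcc
Ldha second start: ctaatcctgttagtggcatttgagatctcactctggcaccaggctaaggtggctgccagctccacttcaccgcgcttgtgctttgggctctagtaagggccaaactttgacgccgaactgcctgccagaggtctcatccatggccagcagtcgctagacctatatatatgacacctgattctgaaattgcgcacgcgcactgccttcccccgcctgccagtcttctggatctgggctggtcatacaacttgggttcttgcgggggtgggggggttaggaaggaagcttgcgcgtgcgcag
Pgk1: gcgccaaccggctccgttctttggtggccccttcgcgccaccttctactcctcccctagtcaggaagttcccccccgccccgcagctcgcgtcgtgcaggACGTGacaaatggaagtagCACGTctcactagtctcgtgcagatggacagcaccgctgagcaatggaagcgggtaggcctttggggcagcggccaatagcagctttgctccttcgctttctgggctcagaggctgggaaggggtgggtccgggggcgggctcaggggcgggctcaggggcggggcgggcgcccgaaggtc
Gpi1: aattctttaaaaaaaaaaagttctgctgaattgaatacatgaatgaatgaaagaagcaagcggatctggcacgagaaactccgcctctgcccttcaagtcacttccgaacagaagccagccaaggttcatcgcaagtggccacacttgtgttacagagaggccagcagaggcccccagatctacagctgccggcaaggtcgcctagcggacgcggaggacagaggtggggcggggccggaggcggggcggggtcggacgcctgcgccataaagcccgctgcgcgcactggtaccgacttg
The first Ldha window held 5 matches, counting each strand of CACGTG, and the second held 0. The Pgk1 window held 2 and the Gpi1 window held 0. Over the 15 windows of the 10 members, 7 windows in 6 members held the core, against 19.62% of all 32851 windows and 21.78% of 27025 genes. The other 4 members with it were Hk1, Hk2, Aldoa and Pkm, each in at least 1 window. For Aldoa 2 overlapping windows hold the same match, which is thus counted in both. The number of windows per gene was not matched between the members and all genes. These matches are letters in a window and say nothing of binding.

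How much of each gene could be counted differed widely among the members. Unique reads were deposited for each RefSeq transcript, so a read that fits 2 transcripts of one gene may be missing. Transcripts were compared by their 32-base words in GENCODE. Hk2, Gpi1, Pfkl, Pfkp, Tpi1, Pgk1 and Pkm each have 1 transcript in the tables, and between 98.11% (Gpi1) and 100% of its words occur in no other transcript there. Hk1, Aldoa and Ldha have more than 1, and only 9.84% and 18.91% of the words of the 2 Hk1 transcripts, 9.59% to 11.92% of the 3 Aldoa transcripts and 5.07% and 17.15% of the 2 Ldha transcripts were their own. If reads that fit 2 transcripts were left out, the counts of these 3 genes come only from the stretches that set the transcripts apart. The counting rule is not given, so their levels are not taken as comparable with those of the other members. Copies elsewhere in the genome matter too. Only 31.72% of the words of Pgk1, 50.23% of Pkm's and 68.77% of Gpi1's occur in no other annotated gene, against 99.82% for Hk2. The Aldoa and Ldha transcripts lay between 61.91% and 67.13%. Reads shared with processed copies cannot be told apart. Of the expressed retrogenes and pseudogenes looked for by name, only Ldhal6b and Pgk2 had a row, with at most 6 and 1 counts in a library. Because Pkm has 1 row, its M1 and M2 forms are not separated.

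**Figure D1:**
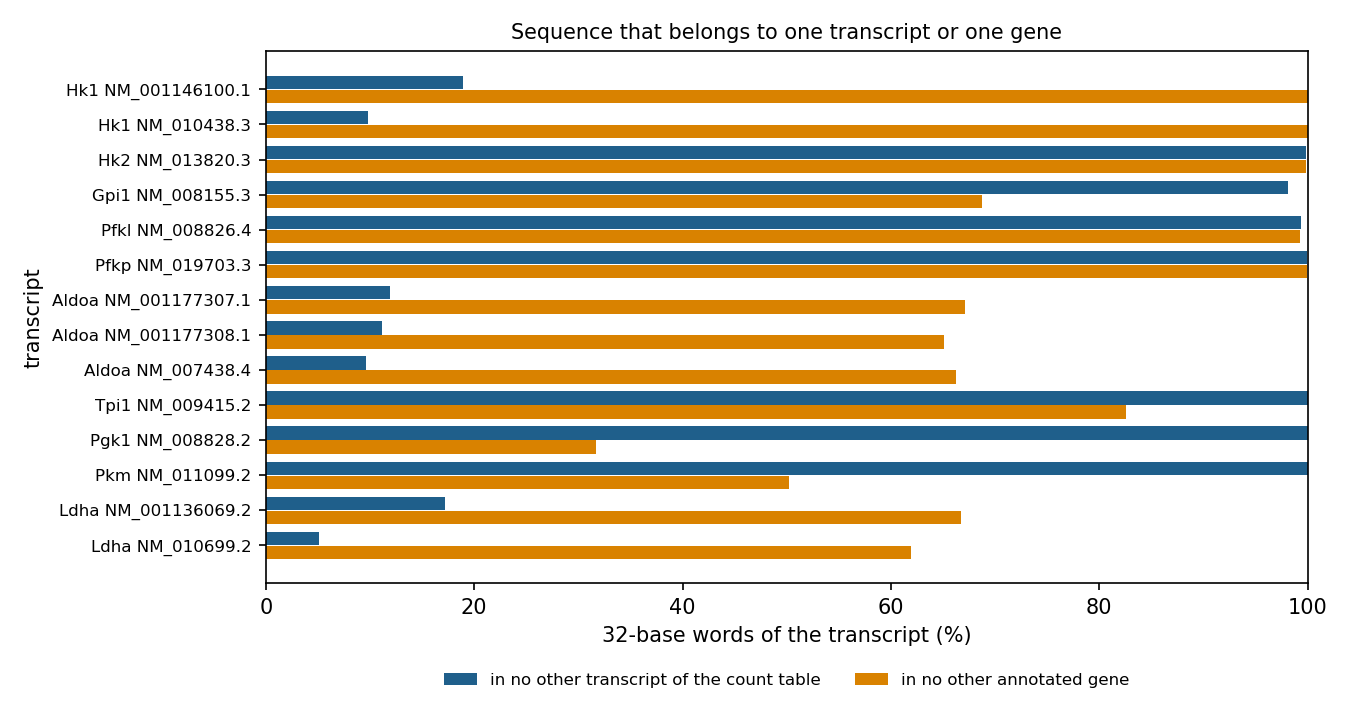
Share of each member transcript's 32-base words (x axis, %) that occur in no other transcript of the count tables (blue) or in no other annotated gene (orange), one pair of bars per transcript. The Hk1, Aldoa and Ldha transcripts have blue bars under 20%, and the orange bars of Pgk1 and Pkm reach 31.72% and 50.23%.

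Library totals ranged from 13053122 to 15707808 counts in the dose set, 10389043 to 13389156 in the standard and DP-seq libraries of the method set and 25897343 to 30609013 in SMART-seq. In the method set the 10 members together took 0.8125% to 0.8268% of the counts in standard RNA-seq, 0.7076% to 0.8606% in SMART-seq and 0.2867% to 0.3897% in DP-seq. SFM replicate 2 stood apart from the rest of the dose set. The primers of the dose-set libraries are not named in the sources used here, and whether this library was made with the same primers as the others was not tested. Its members' counts came to 0.0933% of its total, against 0.165% to 0.2291% in the other 6 libraries, and Gapdh, the abundant glycolytic enzyme often used as a reference gene, stood at 1.45 CPM (each count relative to a library size adjusted by TMM) against 3393 to 7507. Between the 2 SFM libraries the SD over genes of the log2 ratio was 1.65, against 0.37 between the AA15 libraries. The members' median absolute log2 ratio was 1.54 in the SFM pair and 0.33 in the AA15 pair. Results with SFM are therefore given with and without this library.

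Cell state markers differed along the dose set, and edgeR called 3 of 7 primitive streak markers and 1 of 5 tested endoderm markers higher and 3 of 6 neural markers lower per step. Without SFM replicate 2 these counts were 6 of 7, 4 of 5 and 6 of 6, and without either AA15 library the trend called 0 genes in all. The summed level of 7 primitive streak markers was 2.76 CPM in SB, 35.1 and 88.0 in SFM, 283 in AA3, 500 and 649 in AA15 and 1166 in AA100. The sum of 6 endoderm markers was 50.7 CPM in SB and 885 in AA100, mostly Cer1 there. All 6 had counts in AA100, with Sfrp5 at only 3. Cxcr4 had fewer counts in AA3 (189) and AA15 (284 and 414) than in SFM replicate 1 (691). The sum of 6 neural markers was 646 CPM in SB, 356 and 1080 in SFM and 24.0 in AA100. Of 10 pluripotency markers, 9 were detected and Esrrb was at 0 in all 7 libraries. Their sum was 125 CPM in SB and 2319 in AA100, where Tdgf1 made up 1960, whereas Sox2 stood at 78.6 in SB and 9.67 in AA100. Of the 9 tested, 0 were called in the trend with all libraries, and 1 higher and 3 lower without SFM replicate 2. Of markers of other cell types, 4 of trophoblast summed to between 15.4 and 105 CPM, highest in AA100 and mostly Krt8 there, with Elf5 at 0 in all 7 libraries. The 4 fibroblast feeder markers summed to between 29.2 and 60.5 CPM, 4 blood markers to at most 5.78 and 3 cardiac muscle markers to at most 0.438, with Myh6 and Tnnt2 at 0 throughout. In bulk RNA, fewer cells of a type and less RNA per cell cannot be told apart, and the part of this shift in the members' values was not tested.

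The 7 members with 1 row were ranked by counted reads per transcript length in standard RNA-seq, as CPM without TMM scaling. Lengths were not adjusted for sequence shared with other genes. Of the words of Pgk1 31.72% occur in no other gene, of Pkm's 50.23% and of Hk2's 99.82%. The order is thus one of counted reads and may differ from that of the transcripts. In the AA3 libraries Pkm stood at 1860 and 1885 CPM per kilobase, Pgk1 at 753 and 736, Tpi1 at 439 and 429, Gpi1 at 206 and 204, Pfkl at 134 and 136, Hk2 at 45.9 and 45.3 and Pfkp at 6.92 and 7.86. Each gap between neighbours in this order was larger than the range of either pair of libraries. In the single AA100 library Gpi1 stood at 422 CPM per kilobase and Tpi1 at 408, so Gpi1 was no longer below Tpi1. Pkm at 1890 and Pgk1 at 484 kept the upper places there, and Pfkp at 13.6 the lowest.

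The dose set asks how members respond as activin signalling is blocked, left alone or raised. In 6 of the 7 libraries the members varied little, by 1.52-fold (Gpi1) to 3.12-fold (Ldha) between the lowest and highest library. Of the 9 members with counts to compare, 7 were lowest in SB and 5 highest in AA100. Both groups hold a single library. The share of all genes lowest in SB or highest in AA100 was not computed. Whether this order is particular to the members was therefore not tested. SFM replicate 2 lay below all 6 for 7 members and above all 6 for Hk2 and Pkm. No member passed the test in any dose comparison when all libraries were used.

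Of the enzymes of the first phase, Hk2, the hexokinase typical of embryonic and tumour cells, stood at 38.6 CPM in SB, 46.3 and 100 in SFM, 53.3 in AA3, 61.2 and 47.3 in AA15 and 68.8 in AA100. Without SFM replicate 2 its lowest value was in SB and its highest in AA100, with the AA15 libraries on either side of AA3. Hk1, the broadly expressed hexokinase, had 0 to 6 counts per library, and the 0 in AA15 replicate 1 allows up to 3 counts, or 0.185 CPM. Gpi1, which converts glucose-6-phosphate to fructose-6-phosphate, stood at 82.4 CPM in SB, 125 and 39.3 in SFM, 112 in AA3, 99.2 and 113 in AA15 and 105 in AA100. Its AA3, AA15 and AA100 libraries overlapped.

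Phosphofructokinase makes the committed step. Its liver form Pfkl stood at 114 CPM in SB, 175 and 83.0 in SFM, 148 in AA3, 148 and 155 in AA15 and 212 in AA100. The platelet form Pfkp was lower, with 18.9 CPM in SB, 26.8 and 7.61 in SFM, 15.7 in AA3, 20.3 and 15.5 in AA15 and 32.6 in AA100. Both were highest in AA100, and for both the 2 SFM libraries spanned the AA3 and AA15 values.

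Aldoa, which splits fructose bisphosphate into 2 trioses, stood at 10.0 CPM in SB, 15.5 and 0.964 in SFM, 19.4 in AA3, 18.6 and 22.7 in AA15 and 27.2 in AA100. These counts come almost wholly from 1 of its 3 transcripts, NM_007438.4, with 422 of 431 counts in AA100. Tpi1, which interconverts the trioses, stood at 313 CPM in SB, 363 and 112 in SFM, 370 in AA3, 448 and 579 in AA15 and 433 in AA100. Aldoa was lowest in SB and highest in AA100 when SFM replicate 2 is set aside, whereas Tpi1 peaked in AA15.

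Pgk1, the first ATP-yielding enzyme, stood at 670 CPM in SB, 742 and 136 in SFM, 504 in AA3, 729 and 704 in AA15 and 883 in AA100. Its AA3 library was the lowest of the 6 and its AA100 library the highest. Pkm, which makes pyruvate, stood at 307 CPM in SB, 568 and 693 in SFM, 609 in AA3, 499 and 601 in AA15 and 473 in AA100. Pkm in SB lay below every other library, and its SFM pair was the closest among the 9 members. Ldha had few counts in this set, from 1.06 CPM in SB and 1.87 and 0.385 in SFM to 2.19 in AA3, 1.17 and 3.32 in AA15 and 3.16 in AA100.

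**Figure D2:**
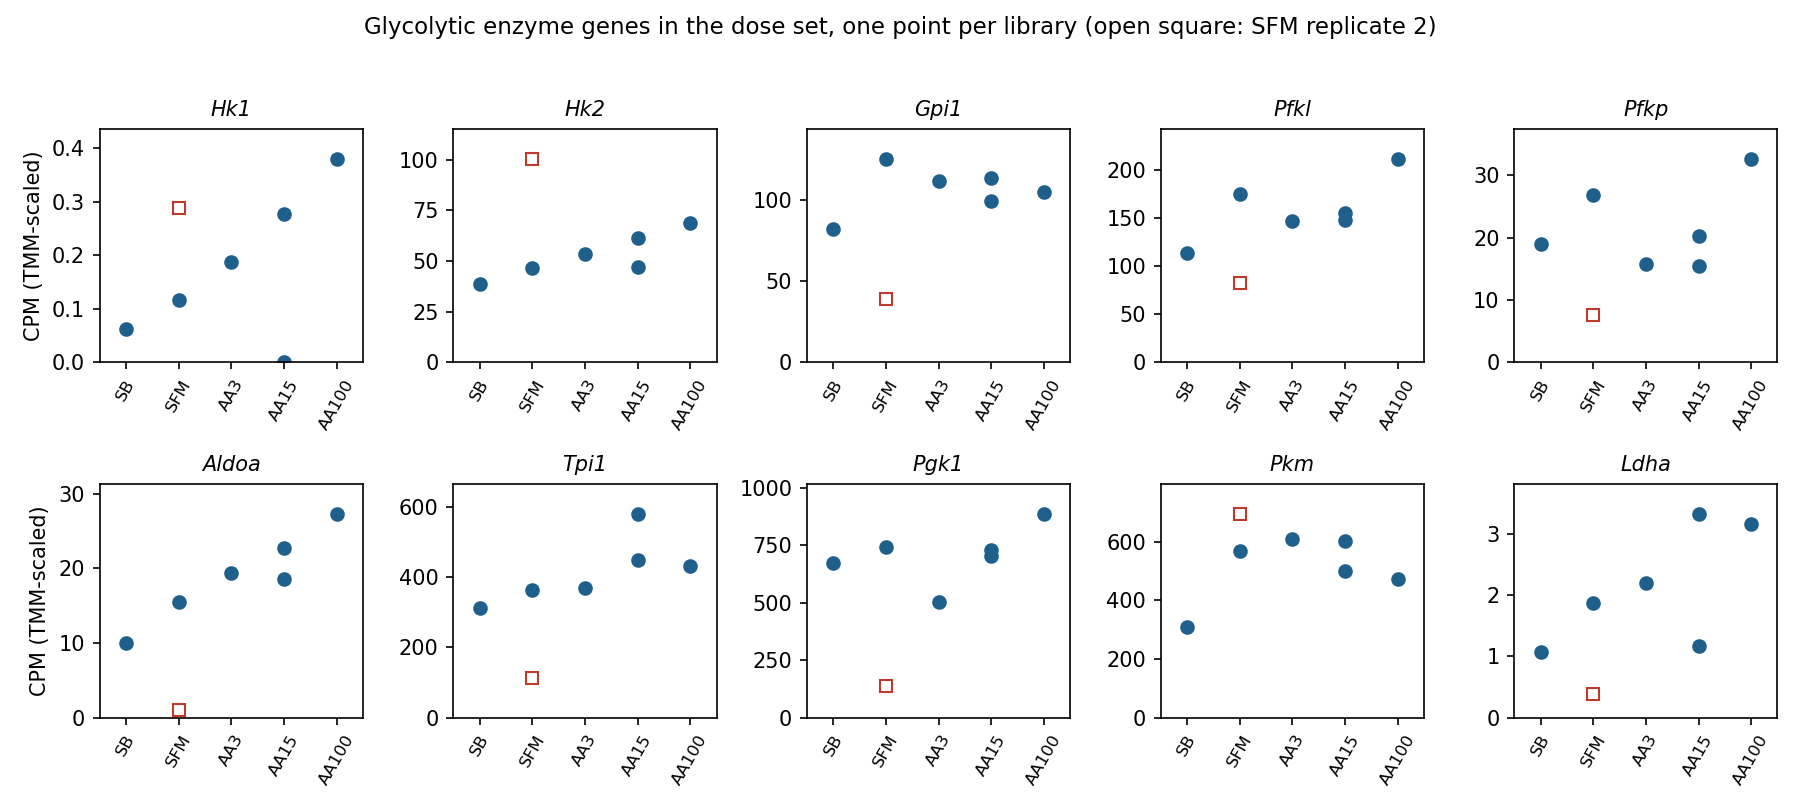
Expression (y axis, TMM-scaled CPM, linear and starting at 0) of the 10 members in the 7 libraries of the dose set (x axis, group), one point per library and an open red square for SFM replicate 2. Pkm in SB (307 CPM) lies below every other library, and the red square lies below all other points for 7 members.

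Over steps from SFM through AA3 and AA15 to AA100, edgeR's quasi-likelihood test called 0 of 9 tested members, where it called 0.397% of 12102 genes. The slopes ranged from -0.13 ± 0.14 (SE) log2 units per step for Pkm to 0.56 ± 0.38 for Aldoa, with Benjamini-Hochberg adjusted p from 0.491 (Tpi1) to 0.824 (Hk2). The members' median slope was 0.24 and 7 of 9 were above 0, against a median of 0.001 over all genes tested. In SB, AA3, AA15 and AA100 against SFM the test called 0 of 9 members and 0% of 12180 genes. At an unadjusted p under 0.05 the test passed 0 of 9 members and 12.7% of genes in the trend, and 0 of 9 members in SB, AA3, AA15 and AA100, against 1.47%, 1.62%, 5.76% and 4.44% of genes. DESeq2 called 0 members in the trend (4.11% of genes) and in the same 4 comparisons (0.202%, 0.115%, 1.46% and 1.01%). Changes in AA100 ranged from -0.41 ± 0.67 (Pkm) to 1.71 ± 1.41 (Aldoa).

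Without SFM replicate 2, where SFM is 1 library assumed to vary like the others, the slopes shrank to between -0.09 (Gpi1 and Pkm) and 0.25 ± 0.10 (Aldoa, adjusted p = 0.192), with 0 of 9 members called against 5.79% of genes. Pkm fell in SB by 0.90 ± 0.28 log2 units (edgeR adjusted p = 0.045), the 1 of 9 members called, against 4.12% of genes and 2.7% called lower. All 9 members lay below SFM replicate 1 in SB, with a median of -0.61 against -0.03 over all genes. This count rests on 1 library per group. Aldoa was 0.81 ± 0.32 higher in AA100 with an adjusted p of 0.0757, where 12.9% of genes and 0 of 9 members were called, and AA3 and AA15 also gave 0 of 9, against 5.27% and 13% of genes. Without SFM replicate 1 instead, 7, 8, 8 and 7 of 9 members were called in SB, AA3, AA15 and AA100, against 58.4%, 57.3%, 64.7% and 59.2% of genes.

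Genes around the members were read from lists of pathway genes. In all 4 comparisons with SFM and in the trend, 0 genes of these pathway lists were called with all libraries. Without SFM replicate 2, Pdk1, the kinase that restrains pyruvate dehydrogenase, rose by 0.42 ± 0.09 log2 units per step (edgeR adjusted p = 0.0149), 1 of 13 genes of transport and control of flux. In the hypoxia list 2 of 15 rose along the steps, Ndrg1 by 0.54 ± 0.12 (adjusted p = 0.0169) and the oxygen sensor Egln1 by 0.48 ± 0.10 (adjusted p = 0.011). Among regulators 1 of 7 was called: Epas1, which encodes HIF-2 alpha, fell by 0.60 ± 0.11 per step (adjusted p = 0.00359). None of the 10 other glycolysis enzymes was called along the steps. In AA100 against SFM without that library, Pdk1 rose by 1.22 ± 0.28 (edgeR adjusted p = 0.000597), Egln1 by 1.60 ± 0.29 (adjusted p = 3.61e-06) and Aldoc, the brain form of aldolase, by 0.87 ± 0.31 (adjusted p = 0.0478), and the enolase gene Eno2 fell by 1.18 ± 0.32 (adjusted p = 0.00426). There 4 of 15 hypoxia genes rose and 0 fell, and 1 of 10 other glycolysis enzymes rose and 1 fell, against 7.18% of genes called higher and 5.74% lower. In SB, also without that library, Gapdh rose by 0.95 ± 0.28 (adjusted p = 0.0266) while the members' values lay below 0, and in AA15 Gapdh rose by 1.14 ± 0.25 (adjusted p = 0.000287). The glucose transporters Slc2a1 and Slc2a3 had slopes of -0.11 ± 0.10 and -0.17 ± 0.10, and neither was called.

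In the method set, mRNA of the same 2 treatments was read by 3 methods, which asks whether the members differ between 100 and 3 ng/mL in each. Gpi1 was the member that passed in all 3, with about 2.1-fold higher CPM in AA100. Standard RNA-seq also called Aldoa, Ldha, Pgk1, Hk2, Pfkp, Pfkl and Pkm, none of which was called in either other method fitted on its own. Tpi1 was called lower in standard RNA-seq and higher in DP-seq. Pgk1 was the 1 member called by the edgeR F test of a difference between methods (adjusted p = 0.0351). Pfkl, Tpi1 and Hk2 stood above the threshold, at 0.0696, 0.0892 and 0.0945. The Pgk1 call ended under several alternatives given below.

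Gpi1 stood at 589 and 587 CPM in the AA3 libraries and 1229 in AA100 by standard RNA-seq, at 80.7 in AA3 and 186 and 145 in AA100 by DP-seq, and at 224 and 246 in AA3 and 544 and 485 in AA100 by SMART-seq. In each method every AA100 library lay above every AA3 library. The changes were 1.06 ± 0.02, 1.03 ± 0.29 (edgeR adjusted p = 0.0462) and 1.13 ± 0.10 (adjusted p = 0.0159) log2 units. Its change did not differ detectably between methods (adjusted p = 1.0), with -0.015 log2 units between DP-seq and standard RNA-seq and -0.0030 between SMART-seq and standard RNA-seq. In the dose set the ratio of AA100 to AA3 for Gpi1 was 0.936, each from 1 library, so the difference of the method set was not seen there. The DP-seq call for Gpi1 ended with RLE scaling (adjusted p = 0.0607), and the SMART-seq call ended when any 1 of its 4 libraries was left out (adjusted p from 0.0775 to 0.0915, changes from 1.05 to 1.21).

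Hk2 stood at 251 and 249 CPM in AA3 and 186 in AA100 by standard RNA-seq, at 129 in AA3 and 155 and 119 in AA100 by DP-seq, and at 71.4 and 56.1 in AA3 and 140 and 139 in AA100 by SMART-seq. It fell by 0.42 ± 0.04 in standard RNA-seq (adjusted p = 1.68e-28), overlapped between groups in DP-seq, and was 1.13 ± 0.17 higher in SMART-seq with an adjusted p of 0.0512. The difference between methods had an adjusted p of 0.0945. Hk1 had 7 and 16 counts in AA3 and 17 in AA100 by standard RNA-seq, a change of 0.61 ± 0.51 (adjusted p = 0.294). By DP-seq it had 0 counts in all 3 libraries, which allows up to 3 counts in each, or 0.282 CPM in AA3.

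Pfkl stood at 496 and 505 CPM in AA3 and 551 in AA100 by standard RNA-seq, at 96.0 in AA3 and 164 and 178 in AA100 by DP-seq, and at 187 and 179 in AA3 and 179 and 166 in AA100 by SMART-seq. It rose by 0.14 ± 0.02 in standard RNA-seq, was 0.83 ± 0.28 higher in DP-seq (adjusted p = 0.101) and stood at -0.08 ± 0.10 in SMART-seq (adjusted p = 0.784). Pfkp stood at 28.5 and 32.5 CPM in AA3 and 56.9 in AA100 by standard RNA-seq, a rise of 0.90 ± 0.08. Its DP-seq and SMART-seq pairs scattered widely, with 10.1 and 26.2 CPM in AA100 by DP-seq and 31.1 and 8.21 by SMART-seq, and the groups overlapped in both.

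Aldoa stood at 25.5 and 23.6 CPM in AA3 and 89.8 in AA100 by standard RNA-seq, a rise of 1.87 ± 0.08. By SMART-seq it stood at 50.1 and 48.7 in AA3 and 58.6 and 66.1 in AA100, which was 0.34 ± 0.18 higher (adjusted p = 0.425). By DP-seq it was near the limit of detection, with 12 counts in AA3 and 4 and 19 in AA100. Tpi1 stood at 700 and 688 CPM in AA3 and 662 in AA100 by standard RNA-seq, at 488 in AA3 and 887 and 766 in AA100 by DP-seq, and at 764 and 775 in AA3 and 708 and 808 in AA100 by SMART-seq. It fell by 0.07 ± 0.02 in the first (adjusted p = 0.00527), rose by 0.76 ± 0.20 in the second (adjusted p = 0.0284), and its groups overlapped in the third.

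Pgk1 stood at 1364 and 1338 CPM in AA3 and 894 in AA100 by standard RNA-seq, at 1329 in AA3 and 1520 and 1460 in AA100 by DP-seq, and at 1365 and 1287 in AA3 and 1460 and 1527 in AA100 by SMART-seq. AA100 lay below AA3 in standard RNA-seq and above it in both others, while the AA3 libraries of the 3 methods all lay between 1287 and 1365 CPM. It fell by 0.60 ± 0.02 in standard RNA-seq (adjusted p = 1.11e-174), and was 0.17 ± 0.17 (adjusted p = 0.716) and 0.17 ± 0.06 (adjusted p = 0.213) higher in DP-seq and SMART-seq. The F test of the difference between methods called Pgk1 (edgeR adjusted p = 0.0351), with a change 0.78 higher in DP-seq and 0.70 higher in SMART-seq than in standard RNA-seq. In the dose set its AA100 library was 1.75 times its AA3 library. The call of a difference between methods ended with RLE scaling (adjusted p = 0.074), without either AA3 library of standard RNA-seq (0.284 and 0.255) and without any 1 SMART-seq library (0.0837 to 0.119).

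Pkm stood at 4491 and 4568 CPM in AA3 and 4647 in AA100 by standard RNA-seq, at 746 in AA3 and 1038 and 912 in AA100 by DP-seq, and at 4537 and 5124 in AA3 and 5193 and 5100 in AA100 by SMART-seq. It was the most abundant member in standard RNA-seq and SMART-seq but below Pgk1 in the 3 DP-seq libraries of this set, on the CPM scale that does not correct for length. Its rise of 0.04 ± 0.02 in standard RNA-seq (adjusted p = 0.0337) was the smallest change called, and the others were 0.39 ± 0.19 (adjusted p = 0.319) and 0.09 ± 0.06 (adjusted p = 0.572).

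Ldha stood at 121 and 117 CPM in AA3 and 40.3 in AA100 by standard RNA-seq, a fall of 1.56 ± 0.07, and at 72.1 and 66.6 in AA3 and 71.7 and 84.4 in AA100 by SMART-seq, where the groups overlapped. DP-seq gave 11 counts in AA3 and 13 and 26 in AA100. The counts came from different transcripts in different sets. Transcript NM_010699.2, which starts 35 bases downstream of the annotated start site of the first promoter window printed above, had 1300 and 1210 counts in AA3 by standard RNA-seq and 397 in AA100. Transcript NM_001136069.2, which starts at the start site of the second window, had 9, 14 and 17. In the dose set the order was turned round, with 44 counts for NM_001136069.2 and 6 for NM_010699.2 in AA100, and 30 and 2 in SFM replicate 1. The fall of Ldha in standard RNA-seq was thus a fall in the reads counted for NM_010699.2. Whether those reads are particular to this transcript cannot be told, as the counting rule is not given.

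**Figure D3:**
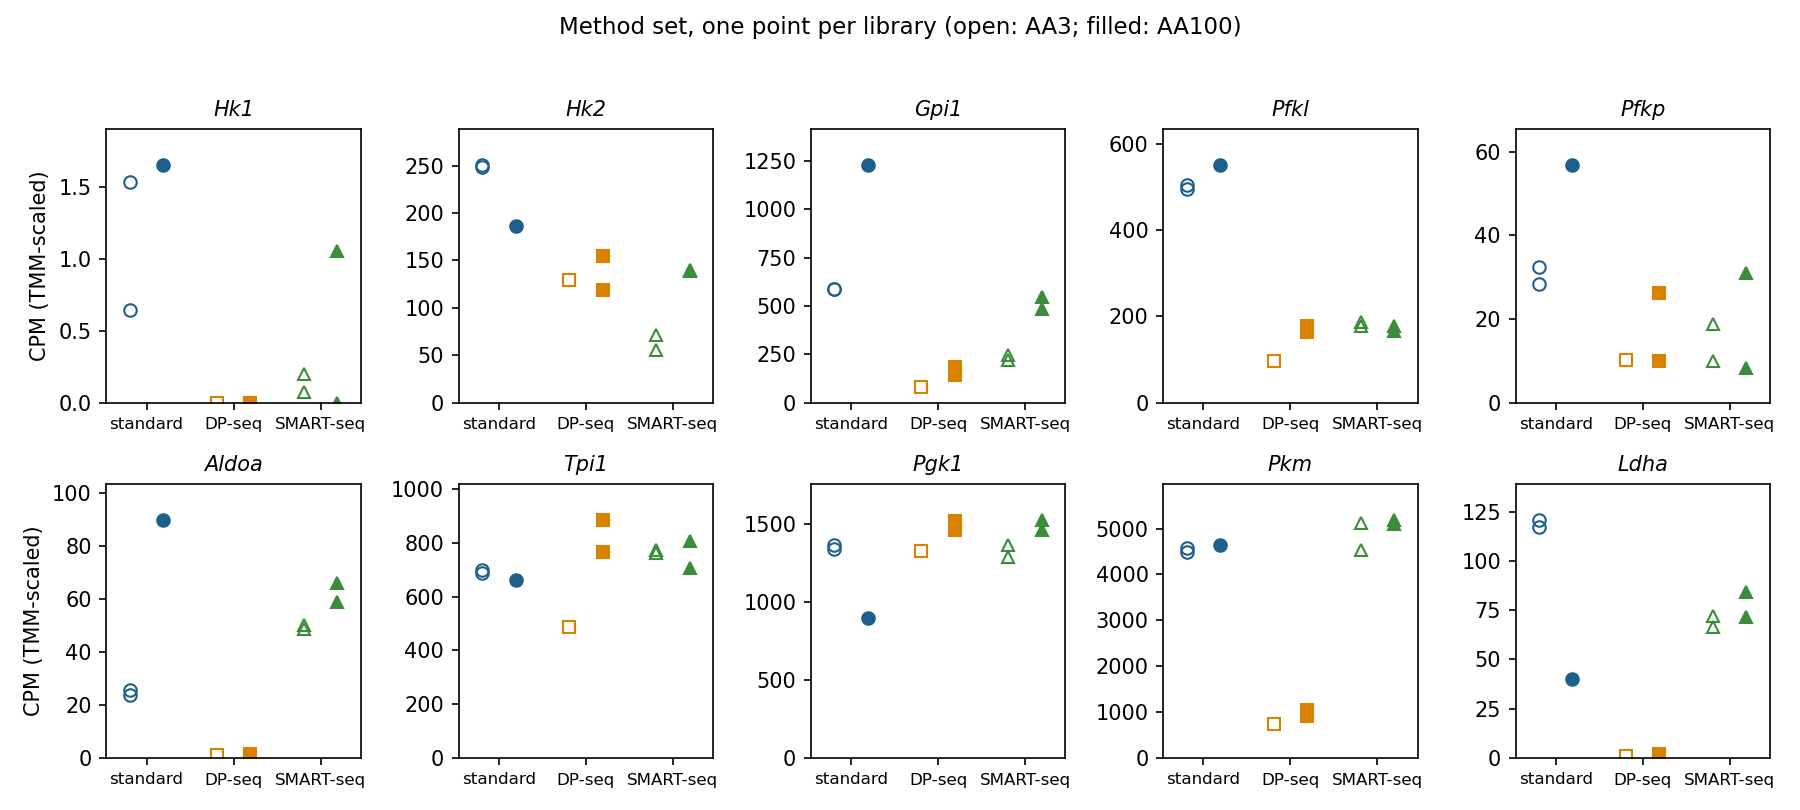
Expression (y axis, TMM-scaled CPM, linear and starting at 0) of the 10 members in the 10 libraries of the method set, by method (x axis), with AA3 libraries as open and AA100 libraries as filled symbols. For Gpi1 the filled symbols lie above the open ones in all 3 methods, and for Pgk1 they lie below in standard RNA-seq (894 against 1364 and 1338 CPM) and above in the others.

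In all, standard RNA-seq called 9 of 10 members, 5 higher and 4 lower, where it called 62.3% of 12605 genes, with 31.1% higher and 31.1% lower. Its spread comes from 1 pair of technical replicates, and the calls for Tpi1 and Pkm ended with DESeq2 and without the filter on low counts. DP-seq called 2 of 9, Gpi1 and Tpi1, both higher, against 3.43% of 11631 genes. SMART-seq called 1 of 9, Gpi1, against 1.35% of 11453 genes. The difference between methods was called for 1 of 10 members and 0.931% of 14072 genes. The members' median change was 0.09, 0.56 and 0.17 log2 units in the 3 methods.

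When the 10 libraries were fitted together, so that the methods share 1 estimate of the spread, standard RNA-seq called 3 of 10 members against 1.91% of genes. Gpi1 rose by 1.05 ± 0.16 (edgeR adjusted p = 0.0199), and Pgk1 fell by 0.60 ± 0.08 (adjusted p = 0.0113) and Ldha by 1.57 ± 0.30 (adjusted p = 0.0479). Aldoa, at 1.86 ± 0.44, had an adjusted p of 0.111. DP-seq then called Gpi1, Tpi1 and Pfkl, all higher, against 2.35% of genes, and SMART-seq called Gpi1 and Hk2 (1.05 ± 0.17, adjusted p = 0.0216) against 4.07%. Without either AA3 library of standard RNA-seq, that method has 1 library per dose. No member call held there in the joint fit, and calls over all genes also became far fewer, so this loss is not particular to the members.

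**Figure D4:**
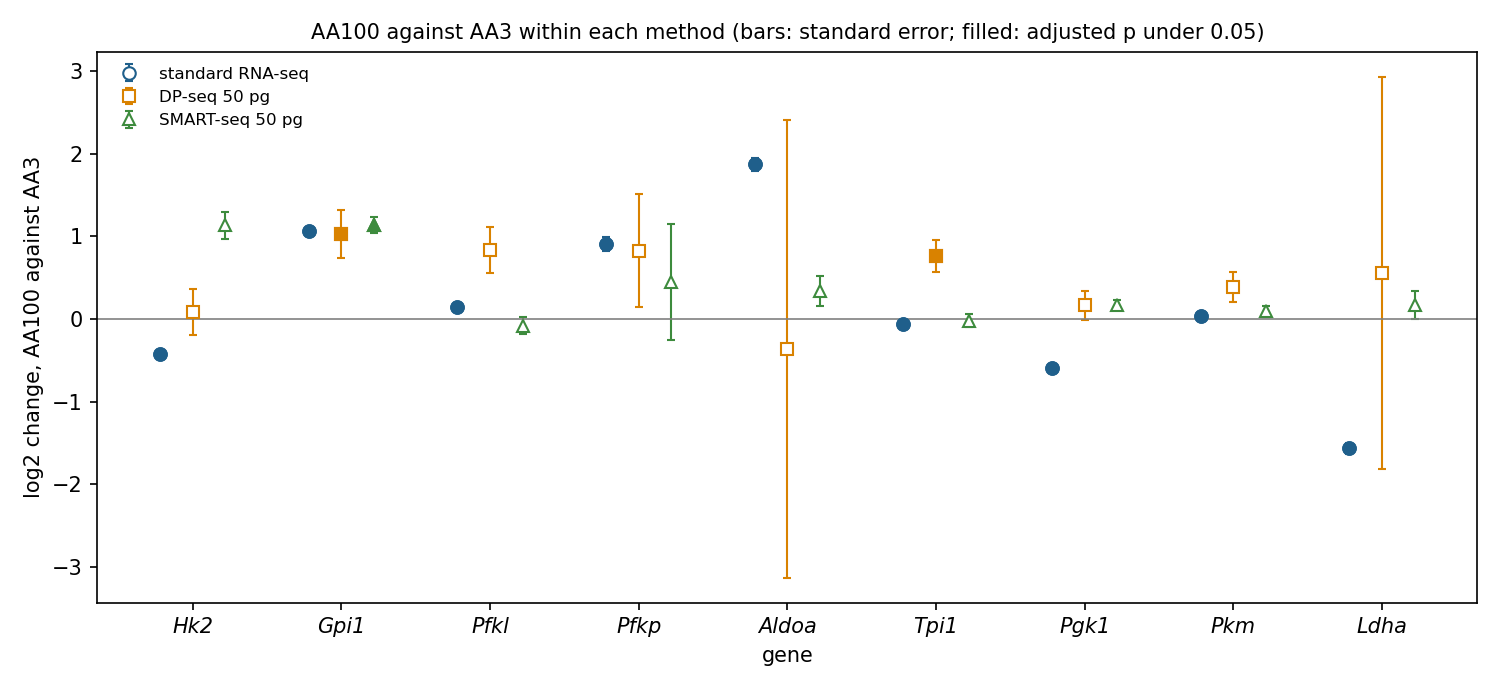
Log2 change in AA100 against AA3 (y axis) for the 9 members other than Hk1 (x axis) in standard RNA-seq (blue circles), DP-seq (orange squares) and SMART-seq (green triangles), with bars for 1 SE and filled symbols for adjusted p under 0.05. Gpi1 is near 1 in all 3 methods, while Ldha lies at -1.56 in standard RNA-seq and at 0.17 in SMART-seq.

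The markers of cell state also differed between AA3 and AA100 in these libraries. The summed endoderm level was 582 and 582 CPM in AA3 and 1189 in AA100 by standard RNA-seq, 485 in AA3 and 2062 and 2534 in AA100 by DP-seq, and 247 and 281 in AA3 and 1175 and 1258 in AA100 by SMART-seq. Cer1 made up most of the AA100 sums of DP-seq and SMART-seq, with 2313 and 1876 CPM and 1075 and 1141, and in SMART-seq Foxa2 stood at 33.3 and 50.7 in AA3 and 29.9 and 26.6 in AA100. Of 6 endoderm markers, standard RNA-seq called 6 higher, DP-seq 1 and SMART-seq 1, against 31.1%, 2.27% and 0.786% of genes called higher. The primitive streak sum was higher in AA100 by standard RNA-seq (982 and 1005 against 1237 CPM) but lower by DP-seq (572 against 482 and 525) and by SMART-seq (323 and 349 against 240 and 253). The lower sums go with T, at 420 CPM in AA3 and 312 and 282 in AA100 by DP-seq and 210 and 256 against 105 and 90.3 by SMART-seq, while 5 of 7 markers in DP-seq and 4 of 6 in SMART-seq had values above 0. The trophoblast sum, mostly Krt8, was lower in AA100 in each method, by standard RNA-seq with 661 and 663 CPM in AA3 and 315 in AA100. Elf5, Myh6 and Tnnt2 were at 0 in all 10 libraries. The part of these differences in the members' values was not tested.

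Of the other glycolytic enzymes, the aldolase gene Aldoc rose in all 3 methods, by 1.42 ± 0.07, 2.66 ± 0.51 (edgeR adjusted p = 0.00301) and 2.47 ± 0.21 (adjusted p = 0.0159). Its CPM were 33.1 and 39.1 in AA3 and 96.8 in AA100 by standard RNA-seq, 8.57 in AA3 and 62.7 and 45.9 in AA100 by DP-seq, and 16.2 and 21.2 in AA3 and 102 and 106 in AA100 by SMART-seq. No AA100 library overlapped an AA3 library. It was the 1 gene of this list called in DP-seq (of 9 tested) and in SMART-seq (of 12), against 3.43% and 1.35% of genes. Standard RNA-seq called 6 higher and 3 lower of 13, against 31.1% of genes called higher and 31.1% lower. There Gapdh rose by 2.33 ± 0.04, from 88.4 and 83.3 to 431 CPM, and Pfkm fell by 1.87 ± 0.71 on at most 18 counts. Gapdh stood at 0.13 ± 0.14 in DP-seq (adjusted p = 0.731) and at -0.14 ± 0.09 in SMART-seq (adjusted p = 0.549), and the difference between methods was called (adjusted p = 0.000142). Only 15.98% of the words of its transcript occur in no other gene. Eno1 and Ldhb fell by 0.24 ± 0.05 and rose by 0.20 ± 0.04 in standard RNA-seq and Pgam1 rose by 0.10 ± 0.02, and none of the 3 was called in the other methods.

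Among the genes of transport and control of flux, Slc16a1, the lactate and pyruvate transporter MCT1, fell in all 3 methods, by 1.63 ± 0.02, 1.36 ± 0.20 (edgeR adjusted p = 0.00015) and 1.22 ± 0.13 (adjusted p = 0.0268). Its CPM were 1427 and 1402 in AA3 and 459 in AA100 by standard RNA-seq, 632 in AA3 and 223 and 267 in AA100 by DP-seq, and 371 and 429 in AA3 and 187 and 157 in AA100 by SMART-seq. In the dose set its AA3 library stood at 178 CPM and its AA100 library at 314, the opposite order. Its relative Slc16a3, known as the exporter of lactate from glycolytic cells, fell by 2.31 ± 0.46 in standard RNA-seq, from 38 and 35 counts to 7, and rose by 4.04 ± 0.97 in DP-seq (adjusted p = 0.018), from 10 counts to 216 and 164. The difference between methods for Slc16a3 had an adjusted p of 0.206. Standard RNA-seq called 4 higher and 5 lower of 15 in this list, against 31.1% of genes called higher and 31.1% lower. Among the 4 was Pdk2, with a rise of 1.79 ± 0.14. The glucose transporters Slc2a1 and Slc2a3 fell there by 0.52 ± 0.02 and 0.80 ± 0.02. They were higher by 0.29 ± 0.21 and 0.17 ± 0.16 in DP-seq and by 0.27 ± 0.12 and 0.29 ± 0.08 in SMART-seq, none of these called. The difference between methods was called for Slc2a3 (adjusted p = 0.023) and not for Slc2a1 (adjusted p = 0.159).

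In the hypoxia list standard RNA-seq called 9 higher and 1 lower of 17 genes, against 31.1% of all genes called higher and 31.1% lower. The list's median was 0.80 against -0.01 over all genes. The transcription factor gene Bhlhe40 rose in all 3 methods, by 2.44 ± 0.08, 3.01 ± 0.59 (edgeR adjusted p = 0.00352) and 3.41 ± 0.36 (adjusted p = 0.0268). Adm, the vasodilator peptide adrenomedullin, rose by 2.79 ± 0.26 in standard RNA-seq and 3.87 ± 0.64 in DP-seq (adjusted p = 0.000516), and the oxygen sensor Egln3 by 1.18 ± 0.08 and 1.51 ± 0.41 (adjusted p = 0.0408). Egln1 rose by 1.48 ± 0.05 in standard RNA-seq. DP-seq called 3 higher of 15 (2.27% of all genes), with a median of 0.34 against 0.07 over all genes. SMART-seq called 1 higher of 15 (0.786% of all genes), with a median of 0.53 against 0.007. Among regulators of glycolysis genes, standard RNA-seq called 3 higher and 5 lower of 9, against 31.1% of genes called higher and 31.1% lower. They included Myc at 2.91 ± 0.71, on 3 and 2 counts in AA3 and 19 in AA100. Also called were Epas1 at -1.13 ± 0.17, Vhl at -0.95 ± 0.11 and the pluripotency regulator Lin28a at -0.85 ± 0.02. The other methods called 0 of 7 and 0 of 6.

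Lists of the routes that leave or run against glycolysis held few calls outside standard RNA-seq. Standard RNA-seq called 3 higher and 1 lower of 8 pentose phosphate pathway genes, against 31.1% of genes called higher and 31.1% lower. They were G6pdx at 0.49 ± 0.06, H6pd at -0.43 ± 0.12, Pgd at 0.28 ± 0.03 and Tkt at 0.20 ± 0.02. Pgd, which makes NADPH, also rose by 0.85 ± 0.22 in DP-seq (edgeR adjusted p = 0.028), the 1 of 8 called there, and SMART-seq called 0 of 8. Of 6 genes of the pyruvate dehydrogenase complex, standard RNA-seq called Pdhb at 0.53 ± 0.04, Pdha1 at -0.22 ± 0.04 and Dld at 0.18 ± 0.04. Of 2 gluconeogenesis genes tested it called G6pc3 at 0.53 ± 0.09 and Pck2 at -0.19 ± 0.08. DP-seq and SMART-seq called 0 of 6 and 0 of 3 in these lists, where 3.43% and 1.35% of genes were called.

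The dilution series shows how DP-seq reports the members from one AA3 mRNA at inputs from 10 ng to 1 pg, with 2 libraries each. On the TMM scale Pgk1 and Tpi1 held similar levels down to 10 pg, and Pkm down to 50 pg. Pgk1 stood at 1047 and 1080 CPM at 10 ng, 886 and 932 at 1 ng, 1094 and 1039 at 100 pg, 1160 and 1153 at 50 pg and 996 and 1028 at 10 pg. Tpi1 lay between 183 and 301 CPM over the same inputs. Pkm lay between 1059 and 1269 CPM down to 50 pg, and its 10 pg pair gave 1239 and 2249. This depended on the scaling. Without TMM, Pgk1 fell from 1405 and 1371 CPM at 10 ng to 880 and 898 at 10 pg. Tpi1 stood at 318 and 342 at 10 ng and 232 and 263 at 10 pg, and Pkm at 1545 and 1611 at 10 ng and 1188 and 1130 at 50 pg.

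Hk2, Pfkl and Gpi1 stood at other levels in small inputs. Hk2 stood at 52.2 and 43.9 CPM at 10 ng, 43.6 and 49.9 at 1 ng and between 77.6 and 119 from 100 pg to 10 pg. Pfkl stood at 182 and 186 CPM at 10 ng, 118 and 119 at 1 ng and between 32.4 and 48.0 from 100 pg to 10 pg. Gpi1 stood at 101 and 116 CPM at 10 ng, 92.9 and 87.3 at 1 ng, 37.1 and 64.5 at 100 pg, 47.8 and 49.3 at 50 pg and 26.6 and 37.5 at 10 pg. For these 3 genes the libraries at 10 and 1 ng did not overlap those at 100 pg and below, down to 10 pg, and the pair differences were smaller than the steps between 1 ng and 100 pg. No test was run on them. The dilution pair at 50 pg and the AA3 library of DP-seq in the method set share dose and input. Without TMM scaling Gpi1 stood at 47.1 and 47.8 CPM in the pair and 80.3 in that library. Pfkl stood at 37.0 and 35.6 against 95.5, and Tpi1 at 283 and 285 against 486. Pkm went the other way, with 1188 and 1130 against 742, as did Pfkp. The DP-seq changes in AA100 rest on that 1 AA3 library, and why the levels differed was not tested. At 1 pg, with totals of 427556 and 448933 counts, pairs came apart, as in Hk2 with 690 and 230 CPM and Gpi1 with 14.9 and 161. Aldoa and Ldha had 0 counts in both 1 pg libraries, where the limit is 3 counts, or 11.2 and 9.85 CPM.

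**Figure D5:**
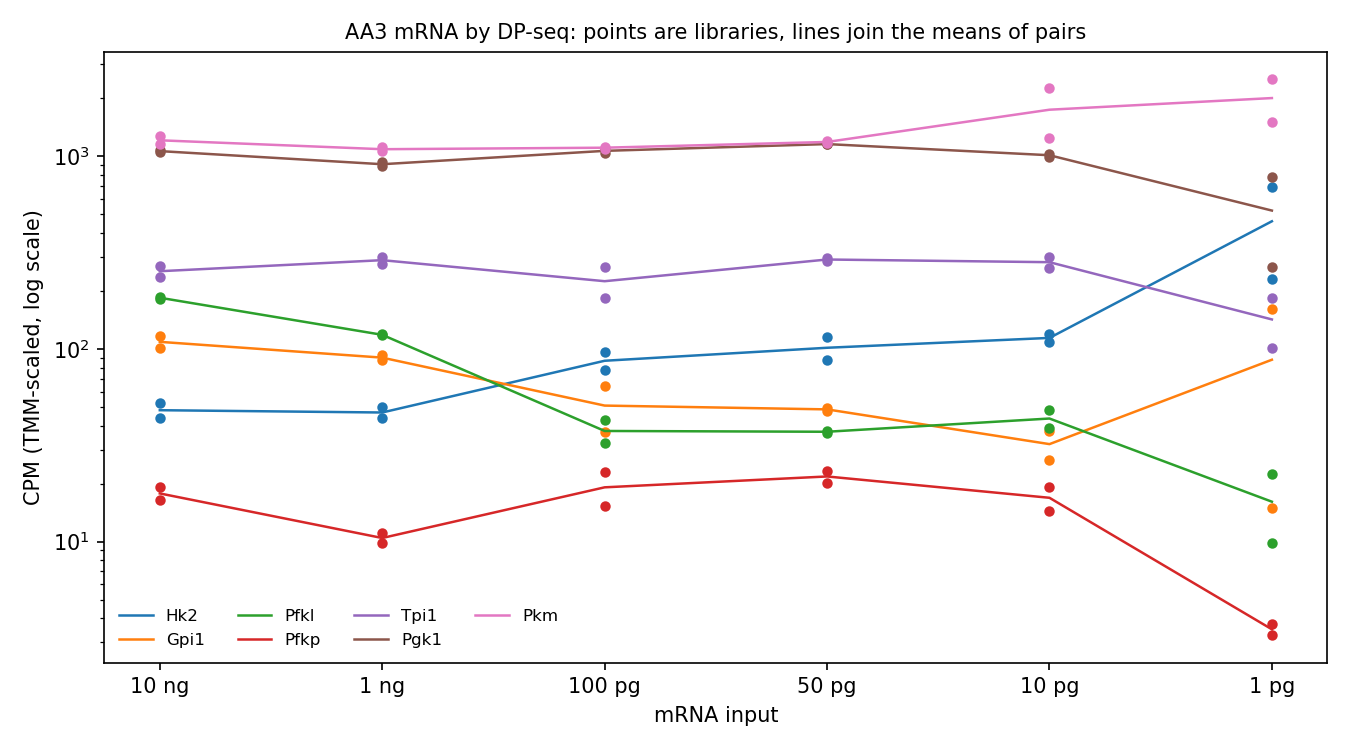
Expression (y axis, TMM-scaled CPM, log scale) of the 7 members with 1 transcript row across mRNA inputs (x axis), with points for libraries and lines through the means of pairs. Pgk1 and Tpi1 run level to 10 pg, Pfkl and Gpi1 lie lower and Hk2 higher at 100 pg than at 1 ng, and pairs come apart at 1 pg.

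The members stood at other levels with other primers. With primer set 1 at 500 pg Pkm reached 9218 CPM, with set 2 it stood at 618 and with set 3 at 837. Pgk1 stood at 655, 118 and 10970 CPM with sets 1, 2 and 3, and Hk2 at 174, 69.6 and 1262. The order of the members thus differed from set to set, each from 1 library without a replicate. In the paired-end library from 100 pg, Tpi1 was the highest member at 875 CPM, above Pgk1 at 601 and Pkm at 442.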

How the data were processed

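Total RNA was extracted, mRNA isolated and single-stranded cDNA made, per the labels' protocols. The authors deposited 1 table per library with unique read counts per RefSeq transcript, per the file headers. Tables that hold some of the 15 values that are not whole were treated as deposited estimated counts and rounded. The aligner, counting rule, strand use and build were not given in the sources used here. RefSeq gave symbols to 25857 of 26566 transcripts and GENCODE to 150 more, leaving 559 without one, and counts were summed to 21844 genes.

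The tests used edgeR 4.0.16 under R 4.3.3 (filterByExpr with minimum count 10 and total 15, TMM, robust quasi-likelihood fits) and Benjamini-Hochberg adjustment at 0.05 over all genes tested. Single-library groups take their spread from the replicated ones. Comparisons with SFM used 7 libraries, the trend 6, each method its own libraries and the difference between methods 10. DESeq2 1.42.0, RLE scaling, no filter, a joint fit, other dose codings, a replicate block and leaving out each replicated library were alternatives. The fits were tested on simulated data. Values after ± are standard errors, floors are 3 counts per library, and both cover the spread between these libraries or counting error only. Groups follow the labels. Replicate numbers shared between groups carry no pairing in the labels.

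The 10 members and the gene lists were chosen with earlier results of these data known. By the rule for named genes, all members are given in each comparison, with at most 4 called genes of a list, largest change first, and Gapdh, Eno1, Pgam1, Slc2a1, Slc2a3 and Ldhb.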

Additional observations from a re-analysis of the deposited data

Results flagged for a closer look

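The change of Pgk1 in AA100 against AA3 differed between standard RNA-seq, DP-seq and SMART-seq by the interaction test over 10 libraries (edgeR quasi-likelihood F test, adjusted p = 0.0351). It fell by 0.60 log2 units in standard RNA-seq and was 0.17 higher in each of the other 2 methods. The AA100 library lay below both AA3 libraries in standard RNA-seq, and 4 of 4 AA100 libraries lay above the AA3 libraries in the other methods. The call ended with RLE scaling, without either AA3 library of standard RNA-seq and without any 1 SMART-seq library.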

How the results depend on the processing

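The direction of the members' changes in the dose set depended on SFM replicate 2, and 19 of 33 reversals came from leaving it out. Of 665 alternative values for single members, 546 kept their direction and side of the threshold, 45 passed it newly, 41 no longer did and 33 changed sign, 1 of these with an adjusted p under 0.05 (Pfkp in AA3 without SFM replicate 1, 1.04). Leaving out 1 library at a time, members called ranged from 0 to 7 in SB, 0 to 8 in AA3, 0 to 8 in AA15 and 0 to 7 in AA100 against SFM, and were 0 throughout in standard RNA-seq (joint fit) and SMART-seq, 3 to 4 in DP-seq (joint fit) and 0 to 3 for the difference between methods. The shares of genes called without SFM replicate 1 are given above. In standard RNA-seq (joint fit) and SMART-seq, calls over all genes also became far fewer without 1 library. The loss of member calls there is thus not particular to the members. In DP-seq (joint fit) calls over all genes became more frequent. For the difference between methods they became fewer without a standard or SMART-seq library and more frequent without a DP-seq library. With RLE scaling, 1 member was called in DP-seq (2.91% of genes) and 0 for the difference between methods (0.718%). In SMART-seq 2 were called without a filter (1.62% of genes), 2 with DESeq2 (10.1%) and 2 in the joint fit (4.07%). The joint fit called 3 in standard RNA-seq (1.91% of genes), and DESeq2 called 6 for the difference between methods (8.12%). Signs turned under RLE and DESeq2 for Gpi1 in SB (-0.011 and -0.011), and with SB as the lowest step of the trend for Hk2 (0.048) and Pkm (0.045). Signs also turned when 1 library was left out. In the trend this held for Hk2 (-0.19 to 0.17) and Gpi1 (-0.086 to 0.39). In SB it held for Gpi1 (-0.61 to 1.06), Pfkl (-0.63 to 0.45), Ldha (-0.82 to 1.44), Pfkp (-0.51 to 1.31), Aldoa (-0.64 to 3.36), Tpi1 (-0.22 to 1.47) and Pgk1 (-0.16 to 2.29). In AA3 it held for Pfkp (-0.78 to 1.04), Hk2 (-0.91 to 0.19), Gpi1 (-0.17 to 1.50), Pfkl (-0.26 to 0.83), Pgk1 (-0.57 to 1.88) and Pkm (-0.19 to 0.087). In AA15 it held for Hk2 (-0.89 to 0.23), Gpi1 (-0.23 to 1.43), Pfkl (-0.20 to 0.86), Pfkp (-0.57 to 1.23) and Pgk1 (-0.045 to 2.39), and in AA100 for Hk2 (-0.55 to 0.57) and Gpi1 (-0.26 to 1.41). Pfkp in AA15 was also at -0.15 without AA15 replicate 1, and Gpi1 in SB at -0.0075 without AA15 replicate 2. In DP-seq it held for Hk2 (-0.11 to 0.26), Aldoa (-1.64 to 0.30) and Pfkp (-0.025 to 1.36), and in SMART-seq for Pfkp (-0.81 to 1.10) and Tpi1 (-0.12 to 0.075). The cause was not tested. Replicate numbers share only a name: deviations of same-numbered libraries correlated at -0.31 between SFM and AA15 over 6370 genes and at -0.02 in SMART-seq over 5929. With the replicate block 0 members were called in the trend (0% of genes), 0 in AA15 (0.089%) and 1 in SMART-seq (0.471%). That block gave 0 members for the difference between methods. Hk1 had 0 to 28 counts in every library, and Aldoa and Ldha had 4 to 26 in the DP-seq libraries of the method set. Why these counts were low was not tested.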
